A study of Homo sapiens and Rattus norvegicus with 26 samples.

Results

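Kruppel-like factors (KLFs) are zinc-finger transcription factors that bind GC-rich and CACCC-containing DNA. The 10 genes *KLF2* to *KLF11* were taken by symbol from the gene column of 4 tables of read counts, with rat symbols converted to upper case, and all 10 were found among the 43382 human genes and the 33289 rat genes with values. In endothelium, laminar flow acts through the *MAP3K3*, *MAP2K5* and *MAPK7* kinases and MEF2 factors to induce *KLF2* and *KLF4*, which raise anticoagulant and vasodilator genes such as *THBD* and *NOS3* and restrain inflammatory ones. The other members are known for other settings. *KLF3* and *KLF8* recruit the corepressor CtBP, while *KLF9*, *KLF10* and *KLF11* recruit SIN3 corepressors. *KLF9* is also a glucocorticoid-responsive gene, and *KLF10* and *KLF11* were first described as early genes of TGF-beta signaling. *KLF5* is best known in epithelium and smooth muscle, *KLF6* is a widely expressed early-response gene, and *KLF7* is best known in neurons.

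RNA from 26 cultures grown in microfluidic chips was sequenced, with 1 library per culture. Each culture received high shear of 12 dyne/cm2 or low shear for 72 hours. The series' text gives low shear as 0.1 dyne/cm2, whereas the methods give a higher value. hECs are endothelial cells without organ character, derived from the human iPSC line IMR90-4, and were kept with DMSO. hCECs came from the same endothelial progenitors but received the GSK3 inhibitor CHIR99021, which activates Wnt signaling, also in the chip. hBMEC-like cells were made from IMR90-4 with retinoic acid and form a tight barrier. rBMECs were isolated as primary microvascular endothelium from brains of male Sprague–Dawley rats, purified with puromycin and kept in serum, and brains pooled for an experiment counted as 1 isolation. Each human model had 3 high-shear and 3 low-shear libraries and rBMECs had 4 of each. High- and low-shear cultures with the same replicate number were treated as pairs, as in the study's own tests. All human replicates come from 1 iPSC line. The paper describes fewer rat isolations than there are rBMEC replicate numbers, so some rBMEC pairs may share an isolation, and p-values for rBMECs then rest in part on technical spread. Medium, species and derivation change with the model and cannot be told apart from it.

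Library totals were 25269733 to 47006272 reads in hECs, 26297516 to 38604498 in hBMEC-like cells, 25727387 to 38166280 in rBMECs and 9790999 to 32225360 in hCECs. The hCEC low-shear library of replicate 2 stood apart. It was the shallowest, and 83.9% of human genes had at least 1 read in it, against 46.3% to 47.3% in the other 5 hCEC libraries. Its 6 fibroblast markers summed to 146 CPM (counts scaled to library size by TMM), against 12.4 and 24.0 in the other low-shear hCEC libraries. Markers of other cell types were raised in it too. The mean log2(CPM + 1) was 3.362 over 10 epithelial markers, against 1.054 and 1.052 in those libraries. Over 11 glial, neuronal and microglial markers it was 3.235, against 1.375 and 1.283. The sum of these 11 was lower, at 202 CPM against 317 and 308. The rBMEC high-shear library of replicate 1 had a sum of 10 endothelial markers of 9688 CPM, against 17694 to 19492 in the other 3. Shear calls of the members within hCECs and rBMECs are given with and without the replicate concerned. Comparisons between models are given so only in part. Listed genes other than the members are given with all libraries only. Of the labelled cell types, hBMEC-like cells went against the endothelial part of their name: the 10 endothelial markers summed to 74.0 to 98.6 CPM, against 9688 to 19492 in the other models, and the 10 epithelial markers to 10174 to 13836 CPM. In hBMEC-like cells *PECAM1* and *CLDN5*, which mark endothelial junctions, averaged 0.045 and 0.031 CPM at low shear. Other endothelial markers were detected there, with *CDH5* and *TEK* at 38.0 and 34.0 CPM on average.

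*KLF2*, *KLF4*, *KLF8* and *KLF11* lie on different chromosomes, and their promoters are shown because several members moved together with shear. In GENCODE 44 on GRCh38, *KLF2* spans chr19:16324826-16328685 on the plus strand, *KLF4* chr9:107484852-107490482 on the minus strand, *KLF8* chrX:56232356-56291531 on the plus strand and *KLF11* chr2:10042849-10054836 on the plus strand. Exons of *KLF4* and *KLF11* overlap exons of lncRNAs on the opposite strand over 357 and 416 bases, and those of *KLF3* and *KLF7* overlap KLF3-AS1 and *MYOSLID* over 265 and 67 bases. The strand setting of the counting is not given in the sources used here, so reads from these stretches cannot be assigned to 1 strand. The 250 bases before a RefSeq start on GRCh38.p14 are printed 5′ to 3′ for 4 members. For *KLF11*, which has several windows, the one that holds the core CTANNNNTAG is printed, and for *KLF8* the one at the GENCODE start. The regions are chr19:16324576-16324825 for *KLF2*, chr9:107489770-107490019 for *KLF4*, chrX:56232106-56232355 for *KLF8* and chr2:10043971-10044220 for *KLF11*. CTANNNNTAG is a loose form of the MEF2 site, which has A or T at the 4 middle places. Capitals mark this core, and CACCC on either strand, a core that KLF proteins bind:
KLF2: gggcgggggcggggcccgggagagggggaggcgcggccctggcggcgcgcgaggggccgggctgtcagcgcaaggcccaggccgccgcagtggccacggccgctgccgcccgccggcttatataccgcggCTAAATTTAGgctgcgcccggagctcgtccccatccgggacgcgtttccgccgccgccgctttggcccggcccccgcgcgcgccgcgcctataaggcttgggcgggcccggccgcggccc
KLF4: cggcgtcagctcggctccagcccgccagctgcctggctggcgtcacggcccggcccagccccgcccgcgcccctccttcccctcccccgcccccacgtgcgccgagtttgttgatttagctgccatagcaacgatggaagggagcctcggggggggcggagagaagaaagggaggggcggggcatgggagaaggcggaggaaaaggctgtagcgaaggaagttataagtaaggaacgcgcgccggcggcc
KLF8: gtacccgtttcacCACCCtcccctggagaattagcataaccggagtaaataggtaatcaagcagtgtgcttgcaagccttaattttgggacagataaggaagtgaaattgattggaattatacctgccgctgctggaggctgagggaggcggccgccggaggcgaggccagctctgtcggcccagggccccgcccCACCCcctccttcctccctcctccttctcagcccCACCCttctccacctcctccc
KLF11: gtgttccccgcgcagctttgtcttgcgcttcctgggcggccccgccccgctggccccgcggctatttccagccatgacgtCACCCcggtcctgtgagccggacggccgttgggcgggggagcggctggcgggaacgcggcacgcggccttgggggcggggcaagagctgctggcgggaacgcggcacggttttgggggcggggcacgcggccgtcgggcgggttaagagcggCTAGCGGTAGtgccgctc

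The core CTANNNNTAG stood in the *KLF2* window at position -120 from the start, with the letters CTAAATTTAG, which have only A and T in the middle. In the printed *KLF11* window it stood at position -18 with the letters CTAGCGGTAG, which have C and G there. The *KLF11* match therefore lacks the A and T of a MEF2 site. RefSeq gives *KLF11* a second start, whose window did not hold the core, and *KLF8* further starts, whose windows did not hold it either. RefSeq windows were found for 8 of the 10 members, and no other member had the core in these 250 bases. Of 35116 human promoter windows of the same length, 2.36% held the core, and 0.057% held the *KLF2* letters. CACCC, searched on both strands, stood 3 times in the printed *KLF8* window and 1 time in that of *KLF11*, and 54.7% of all windows held it. GGGCGG, a GC box, occurred 4 times each in the windows of *KLF2* and *KLF4*, 1 time in that of *KLF8* and 6 times in that of *KLF11*, and 42.6% of all windows held it. In the 4 printed windows no match of a motif overlapped one of another motif. These matches describe letters and are not shown to be bound sites.

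Per length, *KLF2* and *KLF6* were the most abundant members in all endothelial models, and another set led in hBMEC-like cells. Levels between genes are given as RPKM, which are CPM per kilobase, with the gene length of each table, and each member's share is of the summed RPKM of the 10 genes. At low shear, *KLF2* and *KLF6* together held 71.2% to 73.7% of the pool in the 3 hEC libraries, 61.2% to 69.8% in the 3 hCEC libraries and 64.5% to 68.4% in the 4 rBMEC libraries. In hBMEC-like cells the largest low-shear shares were those of *KLF6* (26.6% ± 2.31, SD, n = 3), *KLF3* (24.1% ± 1.89), *KLF5* (18.2% ± 1.28) and *KLF10* (15.9% ± 1.12). *KLF2* held 0.106% ± 0.062 there.

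**Figure D1:**
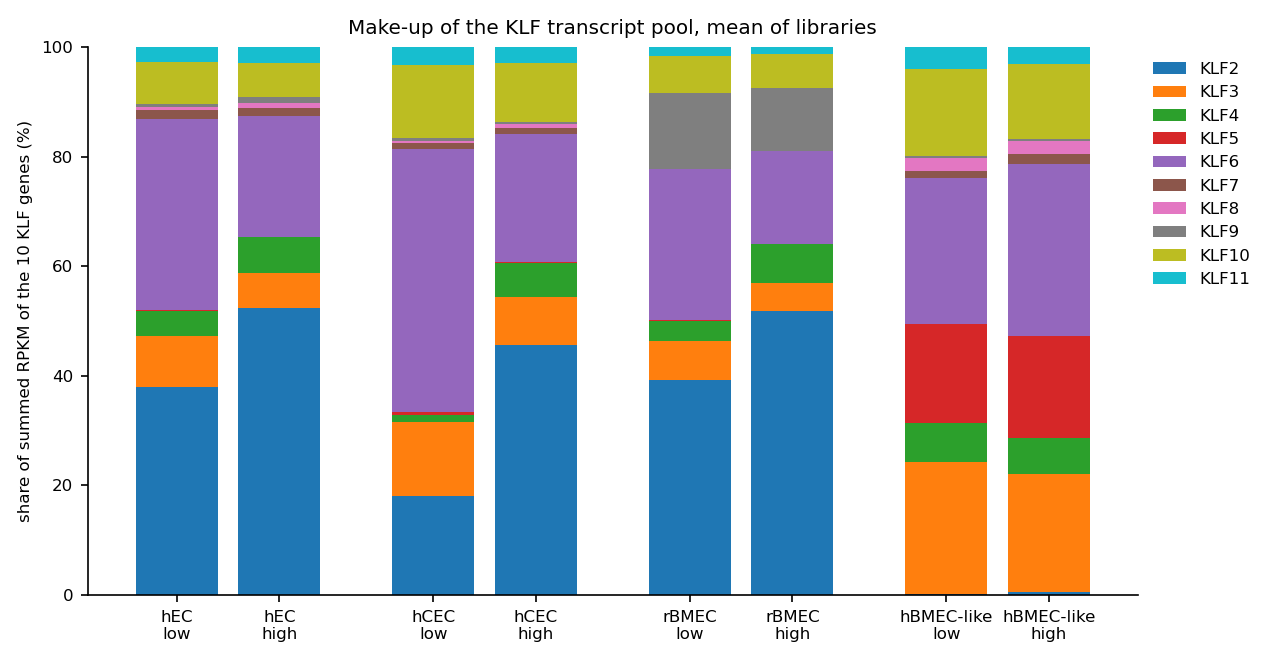
Mean share of each KLF gene in the summed RPKM of the 10 genes (%), by model and shear. Each bar is the mean of 3 libraries, or 4 for rBMECs, and *KLF2* grew from 38.0% to 52.4% in hECs and from 18.1% to 45.7% in hCECs while *KLF5* held 18.2% and 18.6% in hBMEC-like cells and at most 0.49% in the other bars.

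With high shear the pool changed in make-up. The *KLF2* share was 38.0% ± 3.95 at low and 52.4% ± 2.24 at high shear in hECs, 18.1% ± 2.91 and 45.7% ± 0.72 in hCECs (both n = 3), and 39.3% ± 6.21 and 51.8% ± 4.51 in rBMECs (n = 4). The *KLF6* share was 47.9% ± 7.28 at low and 23.4% ± 2.72 at high shear in hCECs. The shares did not overlap between shear levels in these 4 comparisons. A share can fall because other members rise, and *KLF6* itself passed no test in any endothelial model with all libraries. The RPKM of *KLF7* and *KLF8* depend on long gene models, of 17471 and 13524 bases in the human tables, and the rat *Klf2* length is 1056 bases against 2797 in human, so levels between species are described and not tested.

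In hECs, 7 of the 10 members rose with high shear and none fell by the test, where 7.87% of the 15488 genes tested rose. Beside *KLF2* and *KLF4*, the risers were *KLF7*, *KLF8*, *KLF9*, *KLF10* and *KLF11*. Within a model, shear levels were compared by quasi-likelihood in edgeR, with replicate numbers entered as blocks and Benjamini-Hochberg adjustment over all genes tested. A call means an adjusted p under 0.05. The median log2 fold change was 0.59 over the 10 members, 0.37 over the 8 other than *KLF2* and *KLF4*, and 0.000155 over all genes. High- and low-shear libraries did not overlap in 8 members, the 7 called and *KLF3*, all higher at high shear, where 15.1% of all genes did so.

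**Figure D2:**
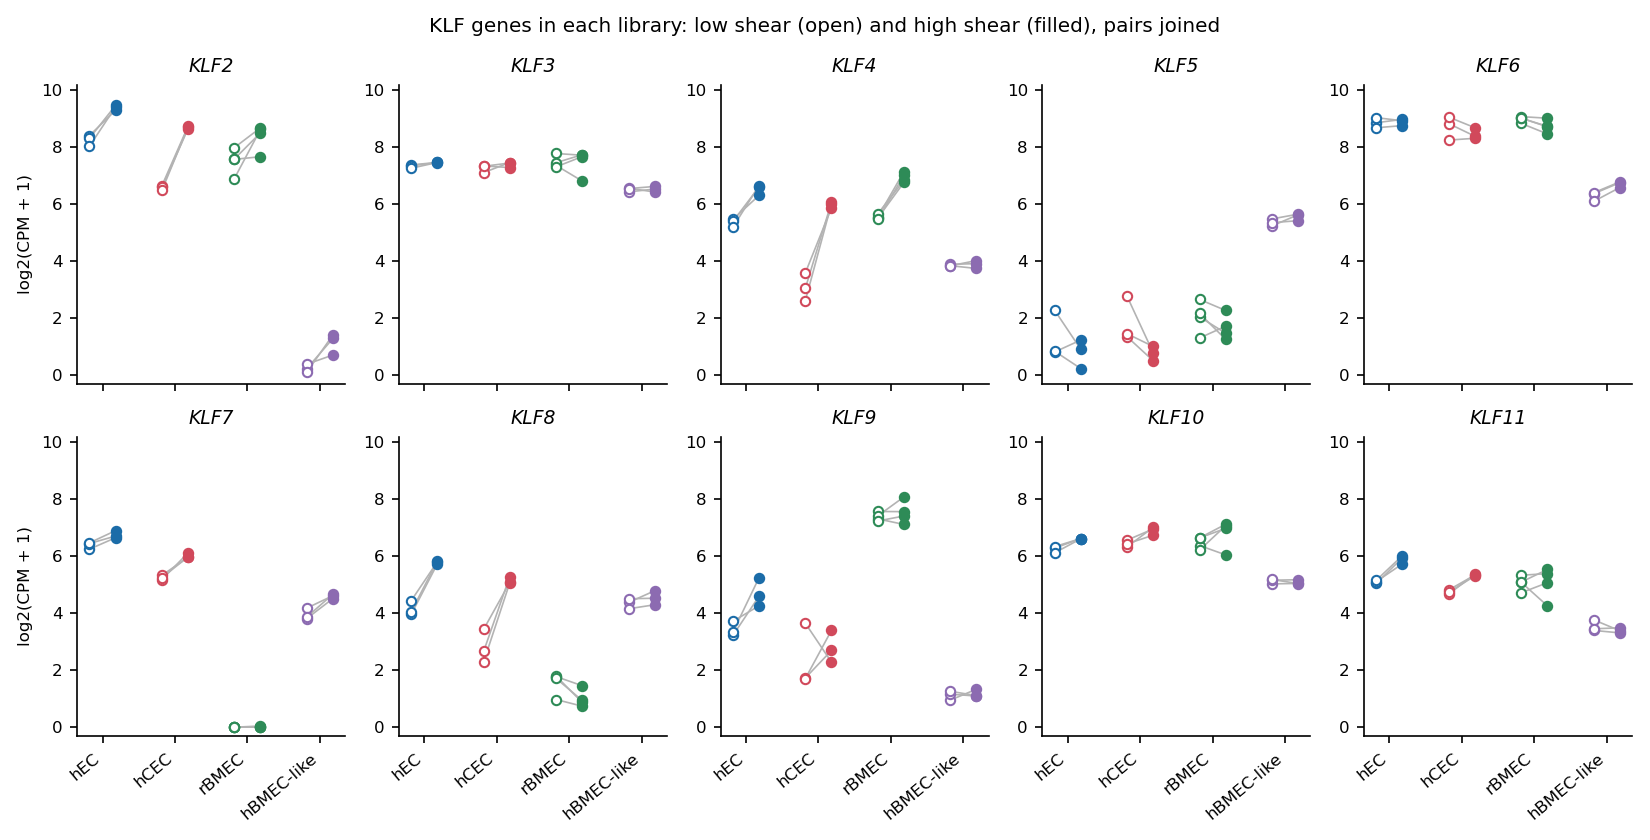
log2(CPM + 1) of each KLF gene in each of the 26 libraries, by model on the x axis, with low shear open, high shear filled and libraries of 1 replicate joined. *KLF4* rose in every pair of hECs, hCECs and rBMECs and stayed between 12.4 and 15.2 CPM in hBMEC-like cells.

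*KLF2* had 339, 317 and 261 CPM at low shear and 627, 706 and 681 CPM at high shear in hEC replicates 1, 2 and 3. Every high-shear value lay above every low-shear value, and the log2 fold change was 1.14 (SE 0.10, adjusted p = 6.7e-04). *KLF4* had 43.2, 41.1 and 35.5 CPM at low and 78.2, 96.1 and 99.5 CPM at high shear, again without overlap, and the estimate on the log2 scale was 1.19 (SE 0.12, adjusted p = 9.2e-04).

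*KLF8*, which represses through CtBP, had the largest log2 fold change of the members in hECs. It had 14.6, 20.7 and 15.6 CPM at low and 52.0, 54.7 and 55.7 CPM at high shear. The groups were far apart, the log2 fold change was 1.69 (SE 0.11, adjusted p = 1.9e-04), and 1.56% of tested genes had a larger one. In each of the 3 pairs the log2 difference of *KLF8* was above those of *KLF2* and *KLF4*, a difference between genes that was not tested.

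*KLF9*, the glucocorticoid-responsive member, had 8.32, 12.1 and 9.13 CPM at low and 23.2, 18.2 and 36.9 CPM at high shear. The 3 high-shear values differed by more than 2-fold among themselves but stood above all low-shear values, and the log2 fold change was 1.36 (SE 0.25, adjusted p = 0.011). *KLF11* had 32.1, 33.6 and 34.7 CPM at low and 60.8, 52.3 and 64.1 CPM at high shear. Its groups did not overlap either, and its log2 fold change was 0.81 (SE 0.085, adjusted p = 0.0011).

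Smaller rises were seen for *KLF7*, from 83.0 ± 6.90 to 107 ± 9.88 CPM (log2 fold change 0.37, edgeR adjusted p = 0.012), and for *KLF10*, from 75.1 ± 5.86 to 97.2 ± 0.35 CPM (0.38, adjusted p = 0.013, both SD, n = 3). *KLF3* went from 160.0 to 175 CPM (0.13, adjusted p = 0.24) and *KLF6* from 466 to 473 CPM (0.03, adjusted p = 0.86). *KLF5* was near the limit of detection, at 0.18 to 3.85 CPM in 6 libraries, and its log2 fold change of -1.13 had an SE of 0.65 (adjusted p = 0.31). Without replicate 1, 5.15% of genes in either direction and 4 members were called, and *KLF7*, *KLF9* and *KLF10* had adjusted p of 0.13, 0.12 and 0.11.

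Markers of other cells moved with shear in hECs, where 8.23% of all genes tested were lower. The 6 fibroblast markers summed to 312 to 1043 CPM at low and 114 to 529 CPM at high shear, with 4 of 6 tested markers lower, and the 10 epithelial markers to 155 to 508 and 87.5 to 157 CPM, with 3 of 5 tested lower. The 10 smooth muscle and pericyte markers summed to 628 to 775 and 393 to 624 CPM, without overlap, with 4 of 6 tested lower. The 10 endothelial markers summed to 14899 to 16237 and 12150 to 14130 CPM, with 2 of 10 lower. Their part in the KLF changes was not tested. In bulk RNA, fewer cells of a type and less RNA per cell cannot be told apart.

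In hCECs, 5 of the 10 members rose with high shear and none fell by the test, where 2.04% of the 14969 genes tested rose. They were *KLF2*, *KLF4*, *KLF7*, *KLF8* and *KLF11*. The median log2 fold change was 0.63 over the 10 members and 0.54 over the 8 other than *KLF2* and *KLF4*, against -0.02 over all genes. Libraries did not overlap in 6 members with higher values at high shear, the 5 called and *KLF10*, where 12% of all genes did so, and in *KLF5* with lower values, where 11.1% did.

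*KLF4* had 7.30, 11.1 and 5.15 CPM at low and 65.9, 57.6 and 63.6 CPM at high shear in hCEC replicates 1, 2 and 3. The lowest high-shear value was more than 5 times the highest low-shear value, and the log2 fold change was 3.07 (SE 0.22, adjusted p = 3.9e-04), which 0.107% of genes exceeded. *KLF8* followed with 5.33, 9.82 and 3.90 CPM at low and 37.9, 32.8 and 32.4 CPM at high shear. Its log2 fold change was 2.55 (SE 0.25, adjusted p = 0.0011), which 0.247% of genes exceeded. *KLF2* had 99.3, 95.3 and 88.6 CPM at low and 424, 399 and 417 CPM at high shear. Its replicates agreed closely within each group, and its log2 fold change was 2.13 (SE 0.16, adjusted p = 4.8e-04).

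*KLF7* rose from 37.2 ± 1.93 to 63.9 ± 3.88 CPM (log2 fold change 0.78, SE 0.12, adjusted p = 0.012). *KLF11* rose from 25.8 ± 1.32 to 39.5 ± 0.81 CPM (0.61, SE 0.12, adjusted p = 0.028, all SD, n = 3), but DESeq2 gave it an adjusted p of 0.39 and called the other 4, where it called 2.03% of genes higher. *KLF10* went from 86.3 to 119 CPM in mean (0.46, adjusted p = 0.16), *KLF6* from 429 to 354 CPM (-0.25, adjusted p = 0.62) and *KLF3* from 153 to 168 CPM (0.14, adjusted p = 0.74).

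The low-shear library of replicate 2 held the highest low-shear values of *KLF4*, *KLF5*, *KLF7*, *KLF8*, *KLF9* and *KLF11* in hCECs and the lowest of *KLF3*, *KLF6* and *KLF10*. For *KLF9* the outcome turned on replicate 2, whose high-shear library held the lowest high-shear value. The low-shear values were 2.32, 11.5 and 2.27 CPM and the high-shear values 5.47, 3.87 and 9.55 CPM. With all libraries the log2 fold change of *KLF9* was 0.65 (SE 0.73, adjusted p = 0.74), and without replicate 2 it was 1.67 (SE 0.26, adjusted p = 2.3e-04). *KLF5* had 1.55, 5.80 and 1.74 CPM at low and 0.42, 0.72 and 1.01 CPM at high shear, a log2 difference of -1.88 (adjusted p = 0.35) and, without replicate 2, of -1.26 (adjusted p = 0.093). Without replicate 2, 14.5% of genes were called in either direction, against 3.23% with all libraries, and 8 members were called: *KLF2* at 2.17, *KLF4* at 3.40, *KLF7* at 0.85, *KLF8* at 2.945, *KLF9*, *KLF10* at 0.36 and *KLF11* at 0.66 were higher, and *KLF6* was lower at -0.40 (adjusted p = 0.0033). Without replicate 1, 2.19% of genes and 3 members were called, with *KLF7* and *KLF11* at adjusted p of 0.083 and 0.25.

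In rBMECs, *Klf4* was the single member called, of 9 tested, where 0.088% of the 13643 genes tested rose. It had 44.8, 45.8, 49.7 and 43.2 CPM at low and 108, 140, 113 and 128 CPM at high shear in replicates 1 to 4. All 4 pairs rose and the groups did not overlap, as 1.96% of all genes did in this direction, and the log2 fold change was 1.41 (SE 0.11, adjusted p = 0.020). The median log2 fold change was 0.01 over the 9 members tested and -0.01 over all genes. Leaving out replicate 2, 3 or 4 brought the adjusted p of *Klf4* to 0.26, 0.15 and 0.094 and left no gene called among the 13646 to 13876 tested, so the members cannot be set apart there, while its log2 fold change stayed at 1.34 to 1.49 over all 4 such fits.

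*Klf2* had 190, 252, 191 and 118 CPM at low and 202, 409, 362 and 393 CPM at high shear. It was higher at high shear in all 4 pairs, by 0.09 to 1.72 on the scale of log2(CPM + 1), and replicate 1, whose high-shear library stood apart, gave the smallest difference. The log2 fold change was 0.86 (SE 0.25, adjusted p = 0.38). DESeq2 gave 0.87 (adjusted p = 0.015), where it called 1.35% of genes higher, and edgeR without replicate 1 gave 1.12 (SE 0.19, adjusted p = 0.039).

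*Klf8* did not rise in rBMECs. It had 2.43, 0.96, 2.47 and 2.28 CPM at low and 1.75, 0.67, 0.83 and 0.92 CPM at high shear, lower in all 4 pairs but with overlap between the groups (log2 fold change -0.97, SE 0.35, adjusted p = 0.46). *Klf6* was also lower in all 4 pairs, from 507 to 429 CPM in mean (-0.25, SE 0.11, adjusted p = 0.56). *Klf9* stood at 150 to 189 CPM at low and 138 to 270 CPM at high shear, a log2 difference of 0.16 (adjusted p = 0.87). Its low-shear mean of 167 CPM compares with 9.86 in hECs, 5.37 in hCECs and 1.19 in hBMEC-like cells, a difference that goes with species and isolation. *Klf10* and *Klf11* had log2 fold changes of 0.34 and 0.01, *Klf3* of 0.01 and *Klf5* of -0.50, with adjusted p of 0.65 to 0.996. *Klf7* had 1 read in all 8 libraries together and was not tested.

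The high-shear library of rBMEC replicate 1 also held the lowest high-shear values of *Klf2*, *Klf3*, *Klf4*, *Klf6*, *Klf9*, *Klf10* and *Klf11* and the highest of *Klf5* and *Klf8*. Its 6 fibroblast and 10 epithelial markers summed to 499 and 228 CPM, against 59.6 to 128 and 21.7 to 35.0 in the other high-shear libraries. These sums rest mostly on few genes. In the high-shear group *COL1A1* and *COL1A2* averaged 113.5 and 78.5 CPM, against at most 0.90 for any other fibroblast marker. *KRT7* averaged 74.0 CPM, against at most 1.26 for any other epithelial marker. The low-shear library of replicate 1 also had the most fibroblast markers of its group, at 382 CPM against 18.9 to 55.3. The part of these markers in the KLF values was not tested. Without replicate 1, 2 members were called, *Klf2* and *Klf4*, where 1.39% of genes were called in either direction.

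In hBMEC-like cells, 4 of the 10 members rose with high shear and none fell by the test, where 8.2% of the 16452 genes tested rose. They were *KLF2*, *KLF5*, *KLF6* and *KLF7*, and *KLF4* and *KLF8* were not among them. The median log2 fold change was 0.15 over the 10 members and -0.0041 over all genes. Libraries did not overlap in *KLF2*, *KLF6* and *KLF7*, all higher at high shear, as 9.43% of all genes were.

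*KLF6* had 81.6, 83.6 and 67.6 CPM at low and 107, 109 and 95.0 CPM at high shear in replicates 1, 2 and 3. All 3 pairs were higher at high shear without overlap, and the log2 fold change was 0.42 (SE 0.047, adjusted p = 4.8e-07). *KLF7* had 17.1, 13.1 and 13.6 CPM at low and 23.5, 21.9 and 24.4 CPM at high shear, and its log2 fold change was 0.68 (SE 0.091, adjusted p = 6.5e-06). *KLF5*, at a level not seen in the endothelial models, had 36.7, 43.8 and 39.9 CPM at low and 48.5, 49.2 and 41.8 CPM at high shear. Its groups overlapped, its log2 fold change was 0.21 (SE 0.066, adjusted p = 0.030), and DESeq2 gave an adjusted p of 0.14.

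*KLF2* changed from a trace to a higher trace. It had 6, 9 and 3 reads at low and 38, 20 and 63 reads at high shear, or 0.18, 0.31 and 0.078 CPM and 1.44, 0.63 and 1.66 CPM. The groups did not overlap, and the log2 fold change was 2.72 (SE 0.60, adjusted p = 0.0022), but DESeq2 gave no adjusted p at these counts. Without replicate 3 the log2 fold change was 2.02 (adjusted p = 0.067), and without replicate 2 it was 3.62 (adjusted p = 3.6e-04). Of the endothelial markers, 2 of 7 tested rose and 1 fell, where 8.2% of all genes rose and 6.77% fell. Their sum was 82.6 to 98.6 CPM at low and 74.0 to 84.4 CPM at high shear. *PECAM1* and *CLDN5* averaged 0.045 and 0.031 CPM at low and 0.097 and 0.079 CPM at high shear. *CDH5* and *TEK* averaged 38.0 and 34.0 CPM at low and 32.8 and 25.1 CPM at high shear. Their part in the *KLF2* values was not tested.

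*KLF4* had 13.8, 13.3 and 13.3 CPM at low and 14.1, 15.2 and 12.4 CPM at high shear, with overlapping groups, and its log2 fold change was 0.04 (SE 0.10, adjusted p = 0.86). *KLF8* went from 19.5 ± 2.48 to 22.4 ± 4.00 CPM (0.20, SE 0.088, adjusted p = 0.14). *KLF3*, *KLF9*, *KLF10* and *KLF11* had log2 fold changes of -0.16 to 0.09 with adjusted p of 0.44 to 0.91. Without the replicate block 7 of 16452 genes were called and none of the 10 members, *KLF6* and *KLF7* having adjusted p of 0.13 and 0.081, and DESeq2 with the block called *KLF6* and *KLF7*, where it called 6.49% of genes higher. By edgeR with the block, 8.2% of all genes rose in these cells and 6.77% fell. Of the epithelial markers 6 of 10 rose with shear, and of the fibroblast markers 4 of 6 rose and 2 fell. The former summed to 10174 to 12374 CPM at low and 11417 to 13836 CPM at high shear. The latter summed to 3439 to 3763 and 4183 to 4410 CPM. The smooth muscle and pericyte markers summed to 899 to 1001 CPM at low and 1065 to 1286 CPM at high shear, with 4 of 7 tested higher. Their part in the changes of *KLF5*, *KLF6* and *KLF7* was not tested.

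**Figure D3:**
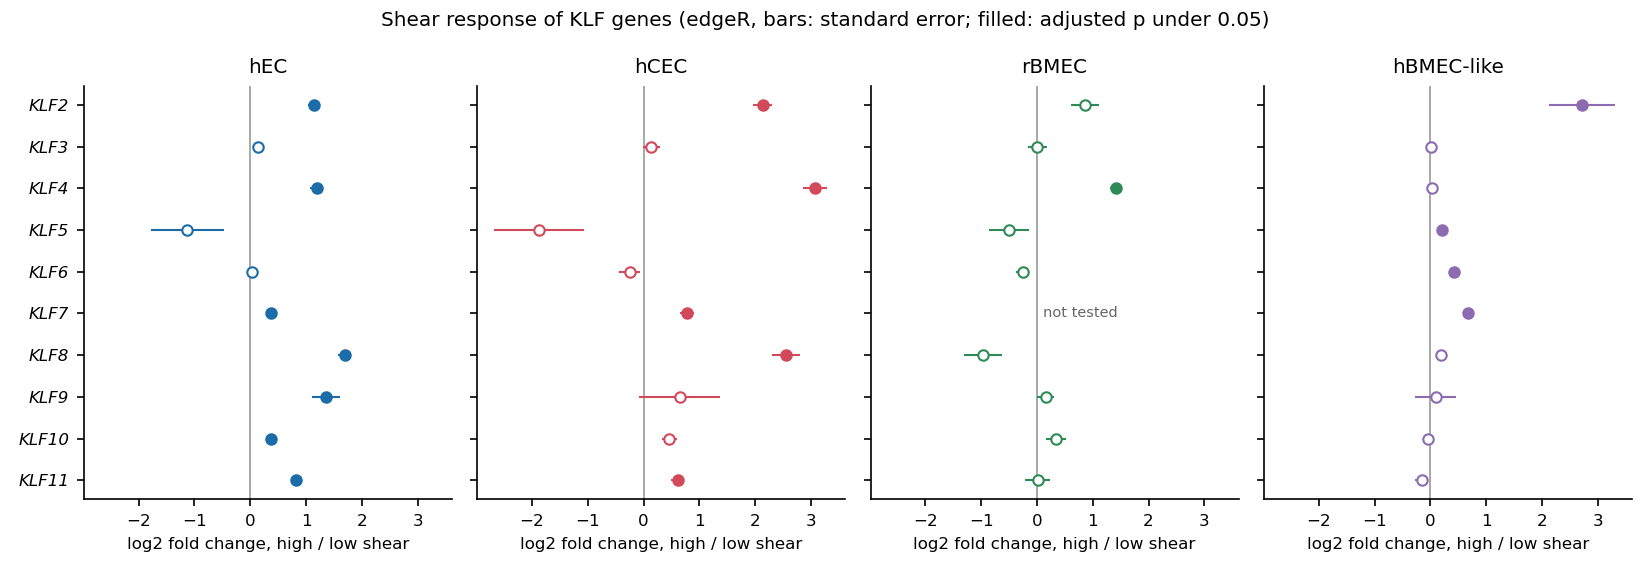
log2 fold change of high over low shear of each KLF gene in each model, by edgeR with the replicate block. Points are estimates, bars are standard errors and filled points have an adjusted p under 0.05, as 7 members do in hECs, 5 in hCECs, 4 in hBMEC-like cells and 1 in rBMECs.

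*KLF2* and *KLF4* did not both head the family in every model. In hECs the log2 fold changes of *KLF8* (1.69) and *KLF9* (1.36) were above those of *KLF2* (1.14) and *KLF4* (1.19). In hCECs *KLF4* (3.07) was the highest, with *KLF8* (2.55) between it and *KLF2* (2.13). In rBMECs *Klf4* (1.41) and *Klf2* (0.86) had the highest values and the other 7 tested members lay between -0.97 and 0.34. In hBMEC-like cells *KLF2* (2.72) was the highest, while *KLF4* (0.04) lay within the range of -0.16 to 0.68 of the other 8. These orders were not tested between genes. The ratio of *KLF2* to *KLF4* in RPKM was 7.43 to 8.72 over all 6 hEC libraries, with both genes rising alike. In hCECs it was 9.35 to 18.7 at low and 6.99 to 7.53 at high shear, without overlap, and in rBMECs 7.58 to 15.2 at low and 5.18 to 8.80 at high shear, with overlap. In hBMEC-like cells it was 0.0063 to 0.15 over all 6 libraries.

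Whether the shear response differed between models was tested as an interaction in fits over several models, with the replicates of a model entered as blocks. The 6 comparisons share libraries, so their results are not independent of each other. Of the members, *KLF4*, *KLF8* and *KLF11* were called in at least 1 comparison. *KLF4* rose more in hCECs than in hECs, by 1.96 on the log2 scale (SE 0.25, adjusted p = 0.0062), the single member called in this comparison, where 0.882% of 18712 genes were called in this direction. The corresponding differences of *KLF2* and *KLF8* were 1.07 (adjusted p = 0.091) and 0.94 (adjusted p = 0.11). Without hCEC replicate 2, which held the library that stood apart, 4.08% of genes in either direction and 4 members were called. Of these members 3 had a higher response in hCECs and 1 a lower one. *KLF2* at 1.03 (adjusted p = 0.011) and *KLF8* at 1.25 (adjusted p = 0.0031) were among the higher ones.

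Compared with both other human models, hBMEC-like cells had a smaller response of *KLF4*, *KLF8* and *KLF11*. Against hECs the differences were -1.14 (SE 0.24, adjusted p = 0.032), -1.48 (SE 0.25, adjusted p = 0.011) and -0.96 (SE 0.15, adjusted p = 0.0076), 3 of 10 members where 1.21% of genes were called lower. Against hCECs they were -3.10 (SE 0.26, adjusted p = 4.0e-04), -2.42 (SE 0.26, adjusted p = 0.0015) and -0.84 (SE 0.15, adjusted p = 0.014), again 3 of 10, where 1.24% of genes were called lower. The call of *KLF4* against hECs was lost in 5 of the 6 fits that left out 1 replicate, at adjusted p of 0.093 to 0.15. That of *KLF8* was lost in 4 of them, at 0.050 to 0.060, and that of *KLF11* in 1, at 0.0585. Without hBMEC-like replicate 2 none of these 3 was called, and 212 of 19799 genes were called in either direction. *KLF2*, whose fold change rests on few reads in hBMEC-like cells, had differences of 1.65 (SE 0.50, adjusted p = 0.13) against hECs and 0.58 (SE 0.50, adjusted p = 0.58) against hCECs.

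**Figure D4:**
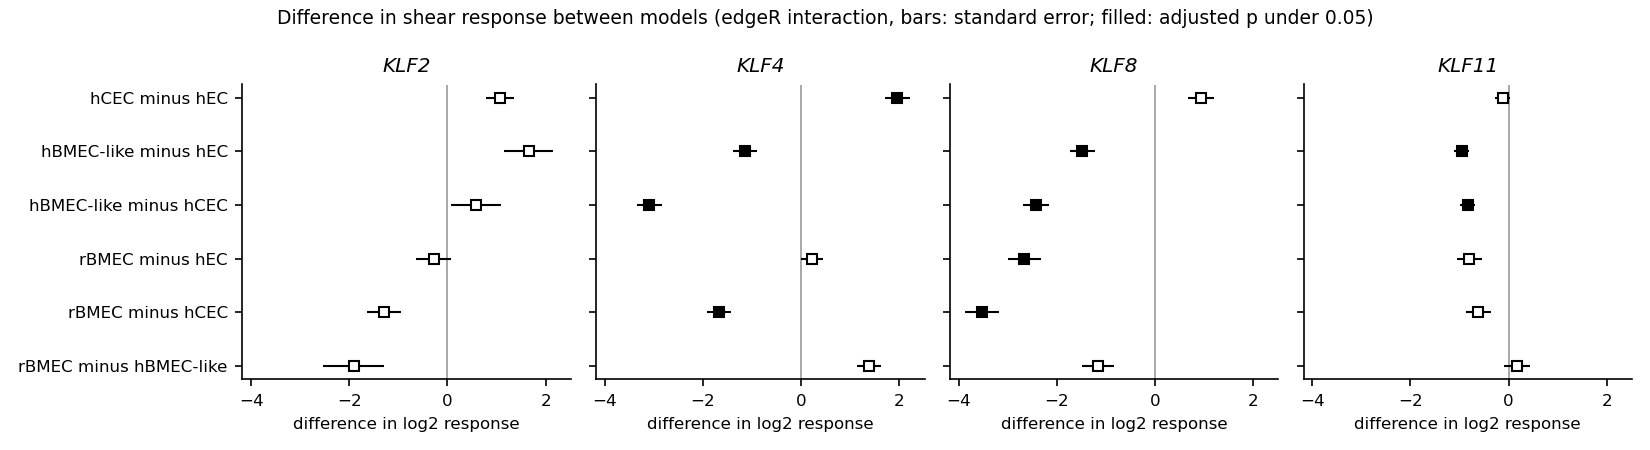
Difference in log2 shear response between models (first minus second) for *KLF2*, *KLF4*, *KLF8* and *KLF11*, by edgeR interaction. Points are estimates, bars are standard errors and filled points have an adjusted p under 0.05, with the *KLF8* difference of rBMECs against hCECs (-3.53) farthest from 0 in this plot.

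In rBMECs the response of *Klf8* was lower than in hECs by a difference of -2.66 (SE 0.34, adjusted p = 9.6e-04), the single member called of 9, where 2.44% of 14123 shared genes were called lower. Against hCECs, *Klf4* (-1.67, SE 0.24, adjusted p = 0.0023) and *Klf8* (-3.53, SE 0.35, adjusted p = 3.3e-04) were lower, 2 of 9, where 1.9% of genes were. The *Klf4* response of rBMECs and hECs differed by 0.22 (SE 0.23, adjusted p = 0.79), and that of *Klf2* by -0.28 (SE 0.35, adjusted p = 0.85). Against hBMEC-like cells edgeR called no member, where 0.0708% of genes were called in either direction. There 4 of the 9 members had an unadjusted p under 0.05 and DESeq2 called 3, and *Klf4* had a difference of 1.38 (SE 0.24, adjusted p = 0.051).

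The levels that these responses started from differed between the human models. At low shear, 5 of the 10 members were lower in hCECs than in hECs and none was higher, where 5.71% of 18712 genes were lower. These fits pool the 3 human models on 1 scale, which moved the log2 levels of hECs and hCECs by 0.06 and 0.04 and those of hBMEC-like cells by -0.11 from the CPM printed here. The differences were -2.46 for *KLF4* (SE 0.17, adjusted p = 8.8e-07), -1.75 for *KLF2* (SE 0.21, adjusted p = 1.2e-04), -1.54 for *KLF8* (SE 0.22, adjusted p = 4.5e-04), -1.21 for *KLF7* (SE 0.11, adjusted p = 6.9e-06) and -0.43 for *KLF11* (SE 0.11, adjusted p = 0.020). The low-shear hCEC libraries also enter the shear test of hCECs, so calls in both tests are not independent. *KLF3*, *KLF5*, *KLF6*, *KLF9* and *KLF10* passed no test, with differences of -1.05 to 0.61, and without hCEC replicate 2 *KLF9* was lower at -2.08 (adjusted p = 6.0e-04).

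At high shear the difference between hCECs and hECs was nearer to 0 for *KLF2*, *KLF4*, *KLF7* and *KLF8* and farther from 0 for *KLF11*. This comparison was chosen after the low-shear values had been seen. The differences of hCECs against hECs were -0.53 for *KLF4* (SE 0.16, adjusted p = 0.035), -0.68 for *KLF2* (SE 0.21, adjusted p = 0.038), -0.63 for *KLF8* (SE 0.21, adjusted p = 0.053), -0.72 for *KLF7* (SE 0.11, adjusted p = 3.1e-04) and -0.56 for *KLF11* (SE 0.11, adjusted p = 0.0023). *KLF9* was lower by a difference of -2.03 (SE 0.49, adjusted p = 0.011). Thus 5 of 10 members were called lower, where 7.34% of genes were. The change from low to high shear in these differences is the interaction given above, which passed for *KLF4* with all libraries.

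Against hECs at low shear, hBMEC-like cells had 8 members lower and 1 higher, where 28.1% of genes were lower and 27.2% higher. *KLF2* differed most, at -10.89 (SE 0.35, adjusted p = 2.9e-12), or 0.19 against 306 CPM. *KLF5* was the member that was higher, at 4.34 (SE 0.66, adjusted p = 4.3e-05), or 40.1 against 1.80 CPM. *KLF8* did not pass, at 0.02 (SE 0.21, adjusted p = 0.95), or 19.5 against 17.0 CPM. Against hCECs, 7 members were lower and 3 higher, where 31.9% of genes were lower and 23% higher. The 3 higher ones were *KLF5* at 3.73, *KLF8* at 1.56 and *KLF4* at 0.71 (adjusted p = 1.5e-04, 1.9e-05 and 0.0021). At high shear 9 members were lower in hBMEC-like cells than in hCECs and 1 was higher, where 28.6% of genes were lower. *KLF4* and *KLF8* were among the lower ones, at -2.35 (SE 0.17, adjusted p = 8.4e-09) and -0.81 (SE 0.21, adjusted p = 0.0036). The order of *KLF4* and *KLF8* between these models thus turned with shear. This high-shear comparison was also chosen after the low-shear values had been seen.

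Of the 8 further KLF genes, *KLF1* and *KLF12* to *KLF18*, no more than 4 were tested in any model. In hECs 3 were tested and *KLF13* rose from 52.8 to 65.5 CPM (log2 fold change 0.31, SE 0.071, adjusted p = 0.027), while *KLF12* (0.21, adjusted p = 0.10) and *KLF16* (0.00, adjusted p = 0.99) did not pass. In the other models 4 were tested and edgeR and DESeq2 called none, with 2 at an unadjusted p under 0.05 in hCECs, 2 in hBMEC-like cells and 1 in rBMECs. Among these *KLF15* had log2 fold changes of -3.49 (adjusted p = 0.16) in hCECs, -0.06 (adjusted p = 0.67) in hBMEC-like cells and -1.31 (adjusted p = 0.41) in rBMECs, where it was lower in all 4 pairs without overlap, and the others of -0.18 to 0.40. Of the 9 SP factors, zinc-finger relatives that bind the same kind of GC box, 5 were tested in hECs, hCECs and rBMECs and 7 in hBMEC-like cells, and neither tool called any. At an unadjusted p under 0.05 there were none in hECs and rBMECs and 1 each in hCECs and hBMEC-like cells.

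Genes that act on *KLF2* and *KLF4* were followed in a list of 12. None fell in any model, while 4 rose in hECs, 2 in hCECs, 1 in hBMEC-like cells and none in rBMECs. Their median log2 fold changes were 0.16, 0.22, 0.07 and 0.03. Of all genes tested, 7.87%, 2.04%, 8.2% and 0.088% rose in the same order of models. The 1 of 12 in hBMEC-like cells lay near its share. *HEG1*, a membrane partner of the CCM complex, rose from 274 to 653 CPM in hECs (log2 fold change 1.25, adjusted p = 3.8e-04). It also rose in hCECs from 71.5 to 186 CPM (1.37, adjusted p = 0.0029) and from 81.7 to 98.0 CPM in hBMEC-like cells (0.25, adjusted p = 0.0015). *MEF2A*, which encodes a MEF2 factor, rose by a log2 fold change of 0.83 in hECs and 1.11 in hCECs (adjusted p = 6.9e-04 and 0.0038). *HDAC5*, a repressor of MEF2 factors, and the kinase gene *MAPK7* rose in hECs by 1.02 and 0.41 (adjusted p = 0.0011 and 0.023). For rBMECs 2 of the 12 had an unadjusted p under 0.05 and DESeq2 called none.

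Known targets were read beside the factors. Of 8 tested genes that *KLF2* or *KLF4* induce, 4 rose in hECs, 5 in hCECs, 4 in hBMEC-like cells, where 1 also fell, and 2 in rBMECs. Of all genes tested, 7.87%, 2.04%, 8.2% and 0.088% rose in these models in the same order. *THBD*, which encodes thrombomodulin, rose from 321 to 666 CPM in hECs (log2 fold change 1.05, adjusted p = 0.0036). In hCECs it rose from 156 to 498 CPM (1.66, adjusted p = 0.0017). *NOS3*, the endothelial nitric oxide synthase, rose by 0.75 and 1.23 (adjusted p = 0.0011 and 0.0052). *SLC9A3R2*, a scaffold protein gene, rose in the 3 endothelial models, by 1.61 in hECs, 1.80 in hCECs and 1.25 in rBMECs (adjusted p = 1.4e-04, 8.3e-04 and 0.031). In hECs DESeq2 called 4 of the genes higher and 1 lower. The lower one was *TEK*, which fell in all 3 pairs, with an adjusted p of 0.018 by DESeq2 and 0.088 by edgeR. In hBMEC-like cells *ASS1*, *CD59*, *NFE2L2* and *NQO1* rose by 0.18 to 0.64. There *TEK* fell by 0.45 on the log2 scale (adjusted p = 4.6e-04), where 6.77% of genes fell. The tested genes had median log2 fold changes of 0.52, 1.06, 0.28 and 0.69 in the 4 models in this order.

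Of genes that *KLF2* or *KLF4* repress, 6 of 8 tested fell in hECs, 2 of 8 in hCECs and 1 of 9 in rBMECs, where 8.23%, 1.2% and 0.0366% of all genes fell, and none fell in hBMEC-like cells, where 2 of 7 rose and DESeq2 called none. *ANGPT2*, a destabilizer of vessels, fell by 3.12 on the log2 scale in hECs, from 36.0 to 4.10 CPM (adjusted p = 5.5e-05). It fell by 1.09 in hCECs (adjusted p = 0.017) and by 1.35 in rBMECs, from 1074 to 420 CPM (adjusted p = 0.031). *EDN1*, the endothelin gene, fell from 16.0 to 2.00 CPM in hECs (adjusted p = 0.0023). In hCECs DESeq2 called 2 of these genes lower and 1 higher. The higher one was *CCL2*, which went from 90.9 to 201.5 CPM and rose in all 3 pairs. DESeq2 gave it a log2 fold change of 1.15 (adjusted p = 0.0050) and edgeR one of 1.10 (adjusted p = 0.091). In hBMEC-like cells *KDR* and *CAV1* rose by 0.58 and 0.40 (adjusted p = 0.017 and 0.026).

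Genes known to share cues or partners with the other members gave a mixed picture. Of all genes tested, 7.87% rose and 8.23% fell in hECs, and 2.04% and 1.2% did in hCECs. In hBMEC-like cells 8.2% rose and 6.77% fell, and in rBMECs 0.088% and 0.0366%. Of 7 early genes of TGF-beta signaling, the setting of *KLF10* and *KLF11*, 1 rose and 4 fell in hECs, 1 rose and 1 fell in hCECs, and 1 rose in each of rBMECs and hBMEC-like cells. *SMAD7*, an inhibitor of this pathway, rose from 28.3 to 46.2 CPM in hECs (log2 fold change 0.69, adjusted p = 0.011). In hCECs it rose from 7.77 to 29.2 CPM (1.97, adjusted p = 0.0032), and *TGFBI* fell from 147 to 33.7 CPM in hECs (adjusted p = 9.9e-04). Of 6 glucocorticoid-responsive genes, the setting of *KLF9*, 2 rose in hECs and 2 in hCECs. *TSC22D3* was among them in both, by 0.93 in hECs and 1.64 in hCECs (adjusted p = 3.7e-04 and 8.3e-04). In hBMEC-like cells 1 of the 6 rose and 2 fell, and in rBMECs 2 of the 6 had an unadjusted p under 0.05 while edgeR and DESeq2 called none. Of 9 cofactors and ubiquitin ligases of KLF proteins, *SIN3B* and *FBXW7* rose in hECs by 0.28 and 0.42 (adjusted p = 0.032 and 0.038) and *EP300* and *WWP1* in hBMEC-like cells by 0.16 and 0.18 (adjusted p = 0.0059 and 0.029), and neither tool called one in hCECs or rBMECs, where 3 and 1 of the 9 had an unadjusted p under 0.05.

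Likeness to *KLF2* and *KLF4* was described over the 13 replicate pairs, as the Pearson r of log2(CPM + 1) differences between high and low shear among 10005 genes tested in all models. The pairs fall into 4 models that respond to different degrees, so r mixes differences between and within models. The genes most like *KLF2* included *DNAJB12* (r = 0.91), *ETFDH* (0.89), *STARD4* (0.89) and *UBN1* (0.88). Those most like *KLF4* were *SMAD7* (0.92), *FOXF1* (0.91), *LRP5* (0.91), *ID1* (0.90) and *MN1* (0.89). Of the family, *KLF4* and *KLF2* were like each other at 0.68, and *KLF11* (0.66) and *KLF8* (0.62) came next for *KLF2*, while *KLF8* (0.60) came next for *KLF4*. *KLF6* ran opposite to *KLF4* at -0.81, and *KLF5* opposite to both at -0.55 and -0.52. *KLF7* has no value here, since it was not tested in rBMECs.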

How the data were processed

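RNA of 26 chip cultures was sequenced as paired-end, poly(A)-selected libraries. The authors deposited whole-number counts per gene, made by aligning reads with STAR and counting them with featureCounts, in 4 tables, 1 per model. The labels name hg38, and the methods name a rat build for rBMECs. The deposited counts were not normalised, and genes with blank values (6 in each human table, 5 in the rat table) were left out. Libraries were scaled by TMM and genes filtered by filterByExpr (minimum count 10, minimum total 15). Shear was tested in each model with edgeR 4.0.16 (R 4.3.3) by quasi-likelihood, with the replicate number as a block and Benjamini-Hochberg adjustment over all genes tested. Standard errors are the log2 fold change divided by the square root of F. Responses were compared as interactions in joint fits of the 3 human models, or of all 4 models on shared symbols with rat symbols in upper case. Levels were compared in a joint fit of the 18 human libraries without a block. DESeq2 1.42.0 served as an alternative. The pairing comes from the methods, and the correlation of paired deviations was 0.0825 to 0.525 over the 13 pairs. RPKM used the tables' gene lengths. Scripts were tested on simulated data. The members and lists were chosen with earlier results of these data known, and list genes named are those called with the largest change, up to 4 per list and model, with further ones named for reference. Some genes that this rule selects are not reported here. Library totals ran from 9790999 to 47006272.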

Additional observations from a re-analysis of the deposited data

Results flagged for a closer look

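Among 19 groups of 4 rBMEC libraries and members, 2 are given here as holding a library far from the others, where chance flags about 1 in 20. The high-shear group of *Klf7* also met the rule, through its single read, and is left aside. The high-shear library of replicate 1 had the lowest *Klf3* level, at 111.4 CPM, with a gap of 0.906 of the group's range. The low-shear library of replicate 2 had the lowest *Klf8* level, at 0.9617 CPM, with a gap of 0.877 of the range.

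The shear response differed between models in 10 tests of a member, by the edgeR interaction on the log2 scale. For *KLF4* the differences were 1.959 for hCECs minus hECs, -1.138 for hBMEC-like cells minus hECs, -3.097 for hBMEC-like cells minus hCECs and -1.674 for rBMECs minus hCECs. For *KLF8* they were -1.479 for hBMEC-like cells minus hECs, -2.416 for hBMEC-like cells minus hCECs, -2.657 for rBMECs minus hECs and -3.528 for rBMECs minus hCECs. For *KLF11* they were -0.9581 for hBMEC-like cells minus hECs and -0.8358 for hBMEC-like cells minus hCECs. These comparisons share libraries.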

How the results depend on the processing

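Over the alternatives run for single members, called values kept their direction in every case, with 442 still called and 37 not, and of the uncalled ones 362 stayed uncalled, 27 became called and 21 changed sign. Differences in response between models entered this count only where the main fit gave an unadjusted p under 0.05, so further changes of sign may be missed. Leaving out 1 replicate each gave 4 to 7 called members in hECs, 3 to 8 in hCECs and 0 to 2 in rBMECs, and for differences in response 1 to 4 for hCECs minus hECs, 1 to 3 for hBMEC-like cells minus hECs and 0 to 1 for rBMECs minus hBMEC-like cells. Without the replicate block, that is without the pairing, 0 members were called in hBMEC-like cells in place of 4, and 1 in place of 0 for rBMECs minus hBMEC-like cells. DESeq2 called 2 in rBMECs, 2 in hBMEC-like cells, and for differences 3 for hCECs minus hECs, 5 for hBMEC-like cells minus hCECs, 2 for rBMECs minus hECs and 3 for rBMECs minus hBMEC-like cells. Fits on the 2 compared models alone called 5 for hBMEC-like cells minus hECs and 1 for rBMECs minus hBMEC-like cells. The cause of these changes was not tested. Same-numbered libraries deviated together most in every human replicate, whereas in rBMECs replicates 1 and 4 correlated more with another number (0.458 against 0.4, and 0.447 against 0.0825).

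Uncalled log2 differences that changed sign ranged, when 1 replicate was left out, from -0.01577 to 0.09717 for *KLF6* in hECs, from -0.1681 to 1.674 for *KLF9* in hCECs, from -0.09861 to 0.198 for *Klf3*, from -0.137 to 0.2956 for *Klf11* and from -0.00644 to 0.2825 for *Klf9* in rBMECs. In hBMEC-like cells they ranged from -0.1952 to 0.292 for *KLF9*, from -0.02926 to 0.08669 for *KLF3*, from -0.04409 to 0.1109 for *KLF4* and from -0.07117 to 0.01887 for *KLF10*. For levels at low shear the ranges were -0.08891 to 0.1824 for *KLF8* in hBMEC-like cells minus hECs, and for hCECs minus hECs -0.2086 to 0.02321 for *KLF3*, -0.03718 to 1.742 for *KLF5* and -0.3878 to 0.09383 for *KLF6*. With library totals alone, *Klf3* was at -0.005394 and *Klf11* at -0.002431 in rBMECs. Depth limits *KLF2* in hBMEC-like cells, *KLF5* in hECs and hCECs and *Klf8* in rBMECs.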
